A study of Homo sapiens with 15 samples.

Results

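The comparison described here set T4 cells treated with an agent that blocks the epidermal growth factor receptor (EGFR) or β1-integrin against T4 cells without a named agent. T4 is the malignant line of the HMT3522 human breast epithelial series, and every culture in the series was 3-dimensional, in laminin-rich matrix. The members were chosen by the treatment named in the labels and not by a rule on measured values. That choice, like the choice of gene lists used below, was made with earlier results of these data known. There were 3 such samples of 15 in the series, each of which the submitters call a T4 revert. One was treated with Tyrphostin AG 1478, a small inhibitor of the EGFR kinase, one with mAb225, an antibody against EGFR, and one with AIIB2, an antibody against β1-integrin. They were set against T4 samples 1 to 3. The other 9 samples served as references: 6 T4 reverts with another agent, and 3 of S1, the nonmalignant line of the same series. The other agents were GM6001, an inhibitor labelled MMPs and ADAMs, TNF protease inhibitor–2, PD98059 against MAPK signalling, LY294002 against PI3K, and dominant-negative Rap1. Each agent had 1 sample, so the spread within the blockade group holds the differences between 3 agents. The series text mentions a vehicle, but no label says which samples received it, and no dose, time or control antibody is given in the sources used here. The labels do not say whether samples of 1 group are separate cultures. The p-values therefore reflect sample-to-sample spread of mixed origin. Within T4 and S1 it could be technical alone, and within the agent groups it also holds differences between agents.

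EGFR is a receptor tyrosine kinase that binds ligands such as heparin-binding EGF and epiregulin, and signals through Ras, Raf, MEK and ERK to immediate early genes and to their own feedback inhibitors. β1-integrin pairs with several α subunits to hold epithelial cells to laminin, collagen and fibronectin, and signals through focal adhesions and actin. In breast epithelial cells grown in laminin-rich matrix the receptors are known to influence each other, and blocking either one is known to return T4 colonies to a polarised, acinus-like shape.

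All 3 blockade samples lie in the second of 2 deposited value tables, each for its own array type, and all 3 T4 samples lie in the first. The difference between tables could therefore be estimated only from groups present in both, namely S1 (samples 1 and 2 in the first table, sample 3 in the second) and the other T4 reverts. Those reverts carry different agents in each table, and S1 sample 3 was at least 2-fold from S1 samples 1 and 2 in 553 and 648 of the 9111 genes tested, so neither source is a clean measure of the array type. The fitted table term had a median size of 0.170 on the log2 scale over all genes, and reached 2-fold in 49 genes. Estimated from S1 alone it reached 2-fold in 577 genes, and from the other reverts alone in 63. What remains of a table effect after this adjustment cannot be told apart from blockade. Within T4, sample 3 was at least 2-fold from samples 1 and 2 in 356 and 426 genes, whereas samples 1 and 2 differed from each other that far in 6.

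Levels below are the deposited log2 values. Differences are log2 values from a limma fit over all 15 samples with the table as a block, given with their standard error, and a gene was called at a Benjamini-Hochberg adjusted p under 0.05. Against T4, blockade changed 561 of 9111 genes (6.16%), of which 231 were higher (2.54%) and 330 lower (3.62%). With quantile normalization within tables the split was 295 higher and 282 lower. In all 561 the agents lay on the same side of the T4 mean, which the group test itself favours, so it is not separate evidence of agreement. A change was taken as common to the 3 agents where the group was called and each agent, after the table adjustment, was at least 2-fold from the T4 mean in the same direction. Without the group test, 201 genes were at least 2-fold lower (2.21%) and 130 at least 2-fold higher (1.43%) in all 3 agents, while single agents reached 2-fold in either direction in 532 genes (5.84%, Tyrphostin AG 1478), 601 genes (6.6%, mAb225) and 525 genes (5.76%, AIIB2). With the group test, 149 genes were lowered in common (1.64%) and 68 were raised in common (0.746%), 217 in all (2.38%). The median difference was -1.75 for the lowered genes and 1.61 for the raised ones, against -0.01 over all genes tested. The deposited values of the 3 agents and the 3 T4 samples did not overlap in any of these 217 genes, as in 39.9% of all genes tested. The genes just inside the rule had a smallest agent difference of 1.00 in size (SKIL, lowered, and EIF1AX, raised). Those just outside had 0.998 (TPM2) and 0.994 (FBXW7).

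The lowered set depended less on the table and on single samples than the raised set. With the table term from S1 alone, 116 of the 149 lowered and 49 of the 68 raised genes still met the rule, and with the term from the other reverts alone, 97 and 20 did. Without each of the 15 samples in turn, 86 of the 149 and 18 of the 68 met it every time. Without Tyrphostin AG 1478 the test called 63 genes higher and 131 lower, and without mAb225 66 and 144. Among the fits with 1 sample left out, the count lowered in common moved past 1.5-fold only without Tyrphostin AG 1478 (98 genes). With the table term from S1 alone that count was 271. The count raised in common was 29 without Tyrphostin AG 1478, 26 without mAb225, 33 without T4 sample 1, 41 without T4 sample 3, 40, 44 and 38 without S1 samples 1, 2 and 3, 44 without GM6001 and 38 without the MMP and ADAM inhibitor. Of the 149 lowered genes, 124 met the rule without T4 sample 3, as did 38 of the 68 raised genes.

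**Figure D1:**
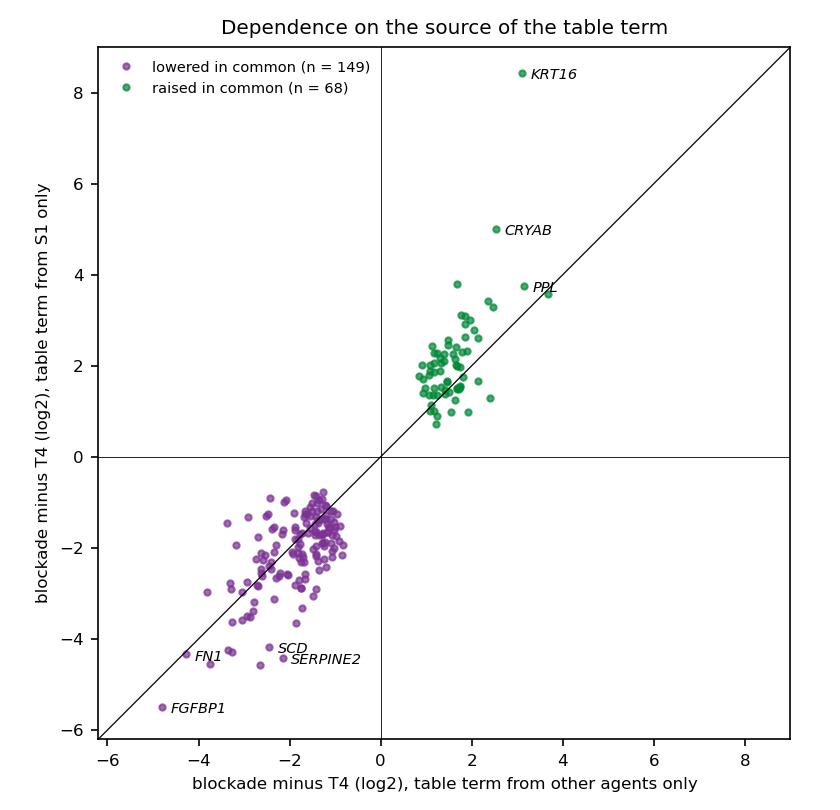
Blockade minus T4 (log2) for the 217 genes changed in common, with the table term from the other reverts only (x axis) and from S1 only (y axis), purple for the 149 lowered and green for the 68 raised genes. Every point keeps its sign on both axes, while single genes leave the diagonal, most of all KRT16 at 3.11 against 8.43.

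Of the genes that ERK signalling is known to induce, 13 were lowered in all 3 agents. Of 29 members tested, these 13 were lower in blockade and none higher (3.62% and 2.54% of all genes), all 13 met the rule of a change in common, and 28 of 29 had a negative difference. The list median was -1.36, and it was -1.42 with Tyrphostin AG 1478, -1.39 with mAb225 and -1.39 with AIIB2. PHLDA1, a pleckstrin-homology-like protein gene, had levels of 7.08, 7.21 and 7.39 with Tyrphostin AG 1478, mAb225 and AIIB2, against 11.13, 11.06 and 10.52 in T4 samples 1, 2 and 3. The blockade samples lay more than 3 log2 units under every T4 sample, which is a 10.4-fold difference after the table adjustment (-3.38 ± 0.24, adjusted p = 2.75e-05). PTGS2, which encodes cyclooxygenase-2, had levels of 6.76, 6.91 and 6.87 with the agents in the same order, against 10.42, 9.92 and 9.63 in T4 (-3.01 ± 0.21, adjusted p = 2.31e-05). DUSP6, the phosphatase that dephosphorylates ERK, had 7.70, 7.58 and 8.42 with the agents, against 11.51, 11.69 and 10.85 in T4 (-3.29 ± 0.62, adjusted p = 0.0116). For DUSP6 the AIIB2 sample was the highest of the 3, though still below every T4 sample. IER3, an immediate early gene with a role in cell survival, was likewise less low with AIIB2, at 8.32, 8.21 and 9.62 with the agents, against 12.26, 11.98 and 12.10 in T4 (-3.54 ± 0.43, adjusted p = 0.00152). FOSL1, an AP-1 subunit gene, was even across agents, at 7.21, 7.27 and 7.38, against 9.12, 9.33 and 9.60 in T4 (-2.33 ± 0.16, adjusted p = 2.31e-05). The remaining called members were SPRY4, DUSP5, PLAUR, ETV5, EPHA2, ELK3, VEGFA and HMGA2. Members that did not pass the test included EGR1 (-0.27 ± 0.99), MYC (-0.45 ± 0.43) and CCND1 (-0.33 ± 0.34), whose blockade and T4 levels overlapped.

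**Figure D2:**
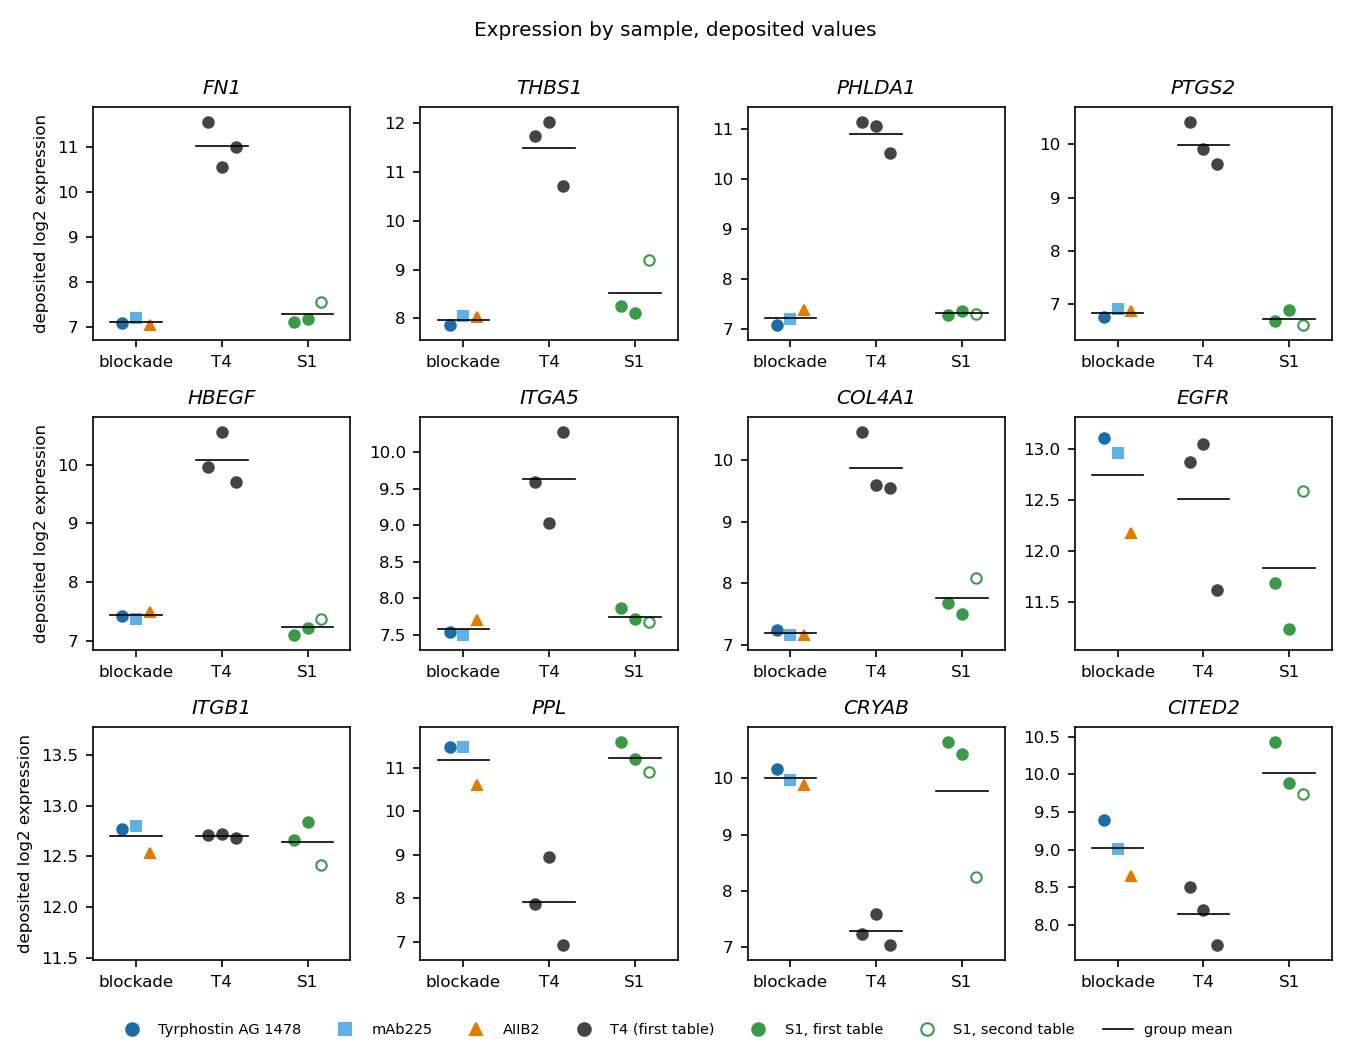
Deposited log2 expression (y axis, its own scale in each panel) of 12 genes in the 3 blockade samples, the 3 T4 samples and the 3 S1 samples, with a line at each group mean and open circles for the S1 sample of the second table. The blockade and T4 samples are apart for FN1, THBS1, PHLDA1, PTGS2, HBEGF, ITGA5, COL4A1, PPL, CRYAB and CITED2, and overlap for EGFR and ITGB1.

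The promoters of PHLDA1, PTGS2 and DUSP6 are shown because these are the lowered ERK-induced genes with the largest smallest difference among the agents. The sequences are the 250 bases before the annotated gene start, from RefSeq on build GRCh38.p14, and all 3 genes lie on the minus strand. Capitals mark an ETS core (GGAAG, or CTTCC on the other strand), the half-site of the cyclic AMP element (CGTCA) and a TATA box (TATAAA). The marked stretches do not overlap. The ETS core and the half-site were searched on both strands, and the TATA box only on the strand shown.
PHLDA1, chr12:76031777-76032026: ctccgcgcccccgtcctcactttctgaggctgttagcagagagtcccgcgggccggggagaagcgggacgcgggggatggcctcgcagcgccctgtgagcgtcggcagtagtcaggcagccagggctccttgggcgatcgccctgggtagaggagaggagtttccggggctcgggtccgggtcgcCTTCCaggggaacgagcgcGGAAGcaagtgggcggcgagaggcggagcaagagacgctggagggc
PTGS2, chr1:186680424-186680673: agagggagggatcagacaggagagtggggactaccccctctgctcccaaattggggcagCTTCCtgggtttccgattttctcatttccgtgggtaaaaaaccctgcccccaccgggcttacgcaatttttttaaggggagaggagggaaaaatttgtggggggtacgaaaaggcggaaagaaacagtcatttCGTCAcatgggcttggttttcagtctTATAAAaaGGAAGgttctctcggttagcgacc
DUSP6, chr12:89352502-89352751: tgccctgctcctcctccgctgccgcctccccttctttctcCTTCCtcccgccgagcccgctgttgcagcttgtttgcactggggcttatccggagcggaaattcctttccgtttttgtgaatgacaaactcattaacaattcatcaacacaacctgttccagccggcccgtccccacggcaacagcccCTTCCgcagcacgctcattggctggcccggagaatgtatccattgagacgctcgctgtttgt
The PTGS2 window holds a TATA box from -32 to -27, a CGTCA from -58 to -54 and ETS cores at -191 to -187 and -24 to -20, counted from the gene start. The PHLDA1 and DUSP6 windows each hold a pair of ETS cores and neither of the other motifs. No AP-1 motif (TGANTCA) or CArG box lies in any of the 3 windows. Over the 118 lowered genes with a promoter in the table, 66.1% held an ETS core, 29.7% a CGTCA, 8.47% a TATAAA, 4.24% a TGANTCA and 0.847% a CArG box. Over the 53 raised genes with one, the shares were 62.3%, 24.5%, 5.66%, 1.89% and 1.89% in the same order. Over the promoters of 7501 genes tested they were 69.8%, 30.1%, 4.08%, 4.03% and 1.07%. A match is a description of letters and not a binding site, and the motifs are short enough to be common in any promoter.

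Transcripts of the blocked receptors themselves did not differ detectably from T4. EGFR had levels of 13.11, 12.96 and 12.17 with Tyrphostin AG 1478, mAb225 and AIIB2, against 12.87, 13.05 and 11.62 in T4 samples 1 to 3, so the groups overlapped (-0.28 ± 0.49, adjusted p = 0.788). ITGB1, the β1-integrin gene, had 12.77, 12.80 and 12.53 with the agents, against 12.71, 12.72 and 12.68 in T4 (0.16 ± 0.13, adjusted p = 0.507). The array measures transcripts, so these values say nothing of the activity of either receptor. Of the EGFR ligands and receptors tested, 2 of 5 were lower (3.62% of all genes were) and none higher, both lowered in common. HBEGF, the heparin-binding EGF gene, had 7.42, 7.38 and 7.50 with the agents, against 9.96, 10.55 and 9.70 in T4, which is 6.71-fold lower (-2.75 ± 0.23, adjusted p = 9.72e-05). EREG, the epiregulin gene, had 6.61, 6.61 and 6.93 with the agents, against 9.13, 8.80 and 9.91 in T4 (-2.48 ± 0.39, adjusted p = 0.00513). Both ligands stood below every T4 sample under either EGFR agent and under AIIB2. TGFA, another EGFR ligand gene, did not overlap either but missed the threshold (-1.47 ± 0.43, adjusted p = 0.0688), and ERBB2, the partner receptor gene, differed by -0.14 ± 0.26 (adjusted p = 0.798). AREG had no probe set assigned to 1 gene and is not analysed here.

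Inhibitors that EGFR and ERK signalling raises against itself fell in part, with 4 of 13 lower (3.62% of all genes were) and none higher. SPRY4, DUSP5 and DUSP6 among these 4 were already counted in the ERK-induced list above. SPRY4, a Sprouty inhibitor of receptor tyrosine kinase signalling, had 7.04, 6.78 and 7.08 with the agents, against 9.43, 9.21 and 9.41 in T4 (-2.60 ± 0.17, adjusted p = 2.31e-05). DUSP5, a nuclear ERK phosphatase gene, had 7.07, 7.31 and 7.46, against 10.28, 10.14 and 8.92 in T4 (-2.42 ± 0.39, adjusted p = 0.00585). SPRED2, a Raf pathway inhibitor gene, fell less (-1.22 ± 0.21, adjusted p = 0.00778) and not 2-fold in every agent, while SPRY2 did not pass (-0.49 ± 0.31, adjusted p = 0.382). Members of the same family thus had unequal values, with SPRY4 at -2.60 and SPRY2 at -0.49.

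Of 13 integrin subunit genes tested, 6 were called lower (3.62% of all genes were) and none higher, and 5 of the 6 were lowered in common. ITGA5, the α5 subunit that pairs with β1 to bind fibronectin, had levels of 7.53, 7.49 and 7.69 with Tyrphostin AG 1478, mAb225 and AIIB2, against 9.60, 9.02 and 10.27 in T4 samples 1 to 3 (-2.18 ± 0.36, adjusted p = 0.00665). ITGA2, the collagen-binding α2 subunit, had 7.28, 7.24 and 7.49 with the agents, against 9.04, 8.74 and 9.46 in T4 (-2.01 ± 0.29, adjusted p = 0.00302). ITGB6, which forms the TGF-β-activating αvβ6 receptor, had 6.92, 6.99 and 7.35, against 9.19, 9.04 and 8.64 in T4 (-1.50 ± 0.24, adjusted p = 0.00531). In each of these genes the 3 agents were close to each other and lay below all T4 samples. ITGA6, the laminin-binding α6 subunit, had 10.04, 10.12 and 10.90 with the agents, against 12.02, 12.02 and 12.39 in T4 (-2.13 ± 0.47, adjusted p = 0.0238). It lost its call without Tyrphostin AG 1478, mAb225 or S1 sample 3 (adjusted p of 0.0595 to 0.0723), and with the table term from the other reverts alone (0.0826). ITGA3, another laminin-binding subunit, was called lower (-1.03 ± 0.27, adjusted p = 0.0443) but lost the call when any of 12 samples was left out (adjusted p of 0.0547 to 0.0917) and with the table term from the other reverts alone (0.0993). ITGB4, the hemidesmosomal partner of α6, overlapped with T4 (-0.58 ± 0.41, adjusted p = 0.445). The list median of integrin subunits was -1.03, at -1.41 with the table term from S1 alone and -0.71 with that from the other reverts alone.

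Of 26 genes of proteins that link integrins to actin, 4 were lower (3.62% of all genes were) and none higher. The list median was -0.34. ACTN1, the α-actinin-1 gene, had 10.43, 10.54 and 9.67 with the agents, against 11.18, 11.09 and 11.91 in T4 (-1.68 ± 0.40, adjusted p = 0.0317), and was the lone member in common. The tropomyosin genes TPM4 (-1.51 ± 0.34, adjusted p = 0.0279) and TPM2 (-1.11 ± 0.26, adjusted p = 0.0318) and the LIM protein gene CSRP1 (-0.77 ± 0.16, adjusted p = 0.0191) were also lower. These calls were marginal: ACTN1 lost its call when any of 10 samples was left out (adjusted p of 0.0516 to 0.0856), TPM2 with any of 9 left out (0.0534 to 0.0837) and TPM4 with any of 8 left out (0.0505 to 0.0800). CSRP1 lost its call without Tyrphostin AG 1478 or mAb225 (adjusted p of 0.0586 and 0.0626). With the table term from the other reverts alone, ACTN1, TPM4 and CSRP1 had adjusted p of 0.124, 0.110 and 0.0766, and with that from S1 alone TPM2 and CSRP1 had 0.165 and 0.0523. Of 13 targets of SRF and YAP, the regulators that respond to actin tension, THBS1 alone was called, and it was lower, a share near the 6.16% called in either direction among all genes.

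Matrix genes gave some of the largest falls. FN1, which encodes fibronectin, had levels of 7.08, 7.20 and 7.04 with Tyrphostin AG 1478, mAb225 and AIIB2, against 11.560, 10.558 and 11.001 in T4 samples 1 to 3. All agents brought it below the median level of a sample (7.33 to 7.40), so the difference, 19.6-fold after the table adjustment, may be understated (-4.29 ± 0.50, adjusted p = 0.00105). THBS1, the matricellular thrombospondin-1 gene, had 7.86, 8.04 and 8.02 with the agents, against 11.74, 12.03 and 10.72 in T4 (-4.02 ± 0.53, adjusted p = 0.00234). The basement membrane collagen genes COL4A1 and COL4A2, which lie side by side on chromosome 13, fell together. COL4A1 had 7.24, 7.16 and 7.17 with the agents, against 10.45, 9.61 and 9.55 in T4 (-2.91 ± 0.32, adjusted p = 0.00084), and COL4A2 differed by -2.09 ± 0.30 (adjusted p = 0.00292). LAMB3, the β3 chain of laminin-332, had 10.17, 10.31 and 10.43 with the agents, against 11.64, 11.72 and 11.50 in T4 (-2.0 ± 0.35, adjusted p = 0.00888). MATN2, a matrilin, was the only matrix gene raised in common, at 10.64, 10.60 and 9.59, against 7.67, 7.97 and 7.16 in T4 (2.72 ± 0.47, adjusted p = 0.00844). FBLN1 was also called higher (1.01 ± 0.26, adjusted p = 0.0415) but was not 2-fold higher in every agent. In all, 5 of 17 matrix genes were lower and 2 higher (3.62% and 2.54% of all genes). The list median was 0.10, so the falls were in particular members and not in the list as a whole.

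Among 18 genes of matrix proteolysis, 4 were lower (3.62% of all genes were) and none higher. SERPINE2, a secreted inhibitor of serine proteases, had levels of 7.36, 7.34 and 7.27 with the agents, against 9.68, 9.29 and 9.23 in T4 (-2.90 ± 0.50, adjusted p = 0.00791). ADAMTS1, a secreted metalloprotease gene, had 7.22, 7.16 and 7.28, against 8.81, 8.08 and 9.09 in T4 (-1.50 ± 0.27, adjusted p = 0.00981), with adjusted p = 0.0998 when the table term came from S1 alone. PLAUR, the urokinase receptor gene, was lower by a smaller margin (-1.25 ± 0.27, adjusted p = 0.0218) and lost its call without LY294002, Tyrphostin AG 1478 or mAb225 (adjusted p of 0.0505 to 0.0650), and with the table term from S1 alone (0.119) or from the other reverts alone (0.0653). PLAT, the tissue plasminogen activator gene, was lower at -1.49 ± 0.37 (adjusted p = 0.0396), with adjusted p of 0.0544 to 0.105 when any of 10 samples was left out, and of 0.0820 and 0.121 with the table term from S1 alone and from the other reverts alone. PLAU, the urokinase gene, did not pass (-1.99 ± 0.73, adjusted p = 0.132). The matrix metalloproteinase genes MMP1, MMP3, MMP7, MMP9 and MMP10 were among the dimmest 25% of genes and were not tested.

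FGFBP1, VEGFC, CCL20 and CXCL8, which encode secreted proteins, were among the genes with the largest common falls. FGFBP1, which releases fibroblast growth factors stored in matrix, had levels of 8.12, 7.90 and 10.12 with Tyrphostin AG 1478, mAb225 and AIIB2, against 11.93, 12.44 and 13.12 in T4 samples 1 to 3. The EGFR agents took it lower than AIIB2 did, and all 3 lay below T4 (-5.03 ± 0.74, adjusted p = 0.00302), of which 1.25 came from the table term. VEGFC, a lymphangiogenic growth factor gene, had 7.58, 7.56 and 7.75 with the agents, against 10.45, 10.08 and 11.21 in T4 (-3.22 ± 0.46, adjusted p = 0.00292). The chemokine gene CCL20 had 7.26, 7.46 and 7.36, against 10.86, 10.48 and 10.32 in T4 (-3.13 ± 0.46, adjusted p = 0.00302). CXCL8, the interleukin-8 gene, had 7.58, 7.58 and 7.65, against 10.34, 10.08 and 10.81 in T4 (-3.16 ± 0.64, adjusted p = 0.0184). The agents were nearly equal to each other in VEGFC, CCL20 and CXCL8, with CXCL8 losing its call without Tyrphostin AG 1478 or mAb225 (adjusted p of 0.0514 and 0.0533) and with the table term from the other reverts alone (0.0579). With PTGS2, CCL20 and CXCL8 were the 3 called members of 18 NF-κB and cytokine genes, all lower (3.62% of all genes were). NFKBIA, the inhibitor that NF-κB itself induces, differed by 0.94 and TNFAIP3 by 0.77, and neither passed the test.

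Other genes with the largest common falls had varied roles. NT5E, the CD73 ectonucleotidase that makes adenosine, had 6.97, 6.99 and 7.16 with the agents, against 10.55, 9.29 and 11.25 in T4 (-3.08 ± 0.49, adjusted p = 0.00513). AMIGO2, a cell adhesion protein gene, had 7.76, 8.11 and 7.55, against 11.13, 11.22 and 11.51 in T4 (-3.65 ± 0.49, adjusted p = 0.00234). ZBED2, a zinc finger protein gene, had 7.15, 7.03 and 7.08, against 10.46, 9.48 and 11.35 in T4 (-3.61 ± 0.49, adjusted p = 0.00248). The agents were close to each other in all of these, and in NT5E and ZBED2 the T4 samples spread more widely than the agents did.

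Lipid and sugar metabolism showed a common fall in particular enzymes. Of 16 genes of cholesterol synthesis, 9 were lower (3.62% of all genes were) and none higher, with a list median of -0.70. Of these 9, 6 were lowered in common (1.64% of all genes were). HMGCS1, the HMG-CoA synthase gene, had levels of 8.13, 8.16 and 8.47 with the agents, against 9.06, 9.31 and 9.73 in T4 (-1.42 ± 0.24, adjusted p = 0.0069). IDI1 (-1.40 ± 0.16, adjusted p = 0.000917), MSMO1 (-1.43 ± 0.20, adjusted p = 0.00248) and INSIG1, a sterol sensor (-1.49 ± 0.25, adjusted p = 0.0069), fell by similar amounts. These 4 genes missed the threshold when the other 6 agents entered the fit as 1 group (adjusted p of 0.0567 to 0.108). SCD, the stearoyl-CoA desaturase gene, had 10.35, 10.35 and 10.53 with the agents, against 11.76, 11.79 and 11.91 in T4. The samples did not overlap, but most of its fitted difference (-3.02 ± 0.47, adjusted p = 0.00417) came from a table term of 1.61, and the deposited values alone differed by -1.41. With no table term in the fit its call was lost, at an adjusted p of up to 0.185. PFKP, the platelet-type phosphofructokinase gene, had 8.79, 8.78 and 9.50, against 11.42, 11.12 and 11.23 in T4 (-3.0 ± 0.37, adjusted p = 0.00156). Its muscle-type paralogue PFKM was higher (10.90, 10.95 and 10.72, against 9.99, 10.31 and 10.29 in T4, at 0.82 ± 0.15 and adjusted p = 0.0109). Of 20 glycolysis genes, these and the glucose transporter gene SLC2A3 (-1.27 ± 0.31, adjusted p = 0.0347) were the called ones (6.16% of all genes were). SLC2A3 lost its call when any of 11 samples was left out (adjusted p of 0.0503 to 0.0801) and with the table term from S1 alone (0.217) or from the other reverts alone (0.0733), the last of which also ended that of PFKM (0.0504). Of 31 genes of oxidative phosphorylation 4 were called higher (2.54% of all genes were) and none lower. The 4 were NDUFA2, SDHD, COX7B and NDUFB5 (by 0.72 to 1.00), and all 4 calls were lost with no table term in the fit. NDUFB5 also lost its call when any of 12 samples was left out (adjusted p of 0.0504 to 0.104) and COX7B with any of 3 left out (0.0504 to 0.0595). SDHD lost it without Tyrphostin AG 1478 (0.0536) and with the table term from S1 alone. COX7B and NDUFB5 lost theirs with the term from the other reverts alone.

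**Figure D3:**
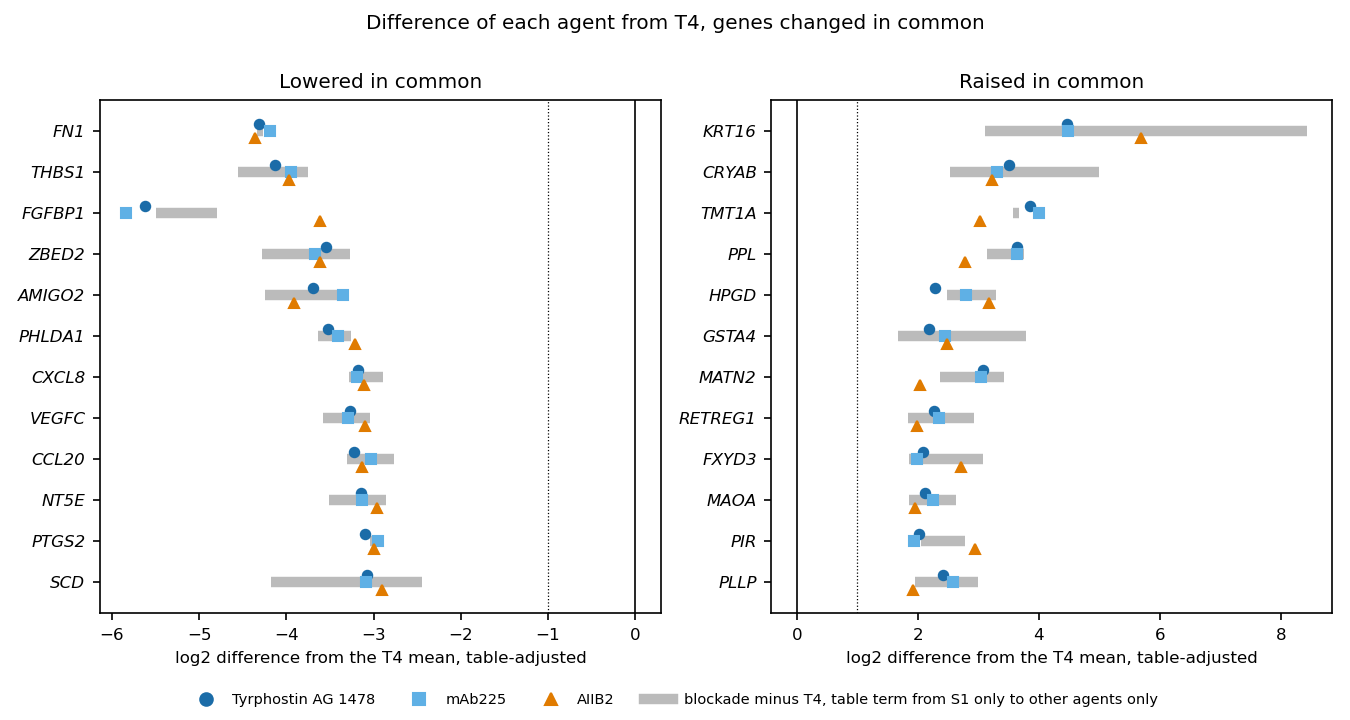
Table-adjusted log2 difference of each agent from the T4 mean for the 12 genes lowered (left) and the 12 raised (right) in common with the largest smallest difference, with a grey bar from the group difference with the table term from S1 only to that from the other reverts only. The 3 agents are close together for most lowered genes, AIIB2 stands apart for FGFBP1, and the grey bar is widest for KRT16.

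The genes with the largest common rises had varied roles, and 63 of the 68 genes raised in common stood in no gene list. PPL, the periplakin gene of the cornified envelope, had levels of 11.48, 11.47 and 10.62 with Tyrphostin AG 1478, mAb225 and AIIB2, against 7.88, 8.96 and 6.92 in T4 samples 1 to 3. Every blockade sample lay above every T4 sample, at 10.2-fold after the table adjustment (3.35 ± 0.54, adjusted p = 0.00554). CRYAB, the small heat shock protein αB-crystallin, had 10.17, 9.97 and 9.88 with the agents, against 7.24, 7.60 and 7.04 in T4 (3.35 ± 0.62, adjusted p = 0.0115). PLLP, the membrane protein plasmolipin, had 10.49, 10.65 and 9.99, against 7.69, 7.95 and 7.50 in T4 (2.30 ± 0.42, adjusted p = 0.0104). PIR, an iron-binding nuclear protein gene, had 9.49, 9.41 and 10.41, against 7.61, 7.82 and 7.49 in T4 (2.30 ± 0.34, adjusted p = 0.00302). MAOA, the monoamine oxidase A gene, had 12.88, 13.02 and 12.71, against 11.45, 11.59 and 10.18 in T4 (2.11 ± 0.41, adjusted p = 0.0142). CRYAB, PLLP, PIR and PPL kept their calls with the table term from either source and without any single sample, whereas MAOA had adjusted p = 0.0631 with the term from the other reverts alone.

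Several raised genes were less secure. KRT16, a keratin of activated and stratified epithelium, had 11.70, 11.72 and 12.94 with the agents, against 8.13, 8.92 and 8.05 in T4 (4.88 ± 1.30, adjusted p = 0.0487). Its S1 levels were 12.16, 12.72 and 7.76, with the low value in the second table, so the difference was 8.43 with the table term from S1 alone and 3.11 with that from the other reverts alone (adjusted p = 0.0726). It lost its call when any of 11 samples was left out (adjusted p of 0.0571 to 0.100). HPGD, the prostaglandin-degrading dehydrogenase, had 8.50, 9.0 and 9.38, against 8.32, 8.28 and 6.93 in T4. Its deposited values differed by 1.12 and its fitted ones by 2.75 ± 0.52 (adjusted p = 0.012), so most of the fitted rise was the table term. TMT1A, a thiol methyltransferase gene, had 12.27, 12.40 and 11.44, against 8.73, 9.94 and 7.02 in T4 (3.63 ± 0.77, adjusted p = 0.0208), and lost its call without TNF protease inhibitor–2, Tyrphostin AG 1478 or mAb225 (adjusted p of 0.0533 to 0.0638). It also lost it with the table term from S1 alone (0.101) or from the other reverts alone (0.0721). RETREG1, an endoplasmic reticulum autophagy receptor gene, rose by 2.20 ± 0.48 (adjusted p = 0.0235) and lost its call without S1 sample 3, TNF protease inhibitor–2, Tyrphostin AG 1478 or mAb225 (adjusted p of 0.0597 to 0.0658). GSTA4, a glutathione transferase gene, rose by 2.38 ± 0.56 (adjusted p = 0.0301) and lost its call when any of 9 samples was left out (0.0504 to 0.0741). FXYD3, an ion transport regulator gene, rose by 2.26 ± 0.60 (adjusted p = 0.0467) and lost its call with any of 13 left out (0.0577 to 0.124). With the table term from the other reverts alone, RETREG1, GSTA4 and FXYD3 had adjusted p of 0.0929, 0.0594 and 0.170.

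Of 16 FOXO targets, genes of growth arrest that PI3K signalling is known to restrain, 3 were higher (2.54% of all genes were) and none lower, with a list median of 0.65. CDKN1B, which encodes the cell cycle inhibitor p27, had 9.52, 9.45 and 8.91 with the agents, against 8.86, 8.66 and 8.39 in T4 (0.93 ± 0.21, adjusted p = 0.0279). The stress gene SESN1 had 8.65, 8.68 and 8.24, against 7.65, 7.60 and 7.49 in T4 (1.14 ± 0.26, adjusted p = 0.0293). CITED2, a transcriptional co-regulator gene, had 9.39, 9.02 and 8.65, against 8.51, 8.20 and 7.73 in T4 (2.03 ± 0.51, adjusted p = 0.0394), with 0.87 of the difference in the deposited values. None of these rises was secure: the calls were lost when 1 of 5, 6 and 10 samples was left out for CDKN1B, SESN1 and CITED2 (adjusted p of 0.0547 to 0.0803, 0.0530 to 0.0840 and 0.0554 to 0.107). With the table term from S1 alone the adjusted p was 0.171, 0.0812 and 0.128 for CDKN1B, SESN1 and CITED2, and with that from the other reverts alone it was 0.0696 and 0.0513 for CDKN1B and SESN1.

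No gene of the cell cycle lists was called, against 6.16% of all genes, and lists this short would hold few calls at that share. Of 25 cell division genes 24 had a negative difference, with a list median of -0.73. Of 24 DNA replication genes 21 were negative, at a median of -0.63. Over all genes tested 4672 of 9111 were negative. MKI67, the Ki-67 proliferation marker, had levels of 9.34, 9.13 and 9.13 with the agents, against 9.63, 9.29 and 10.52 in T4, which overlapped (-1.54 ± 0.60, adjusted p = 0.156). The DNA replication median was -1.66 with the table term from S1 alone and -0.16 with that from the other reverts alone, so its size depended on the table. No member of 26 interferon response genes was called either (6.16% of all genes were), with a median of -0.02.

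Junction and identity markers changed in few members. Of 23 junction and polarity genes 1 was called, which is near the share of all genes called (6.16%). This gene, PKP1, a desmosomal plakophilin, had 12.32, 12.35 and 12.34 with the agents, against 10.60, 10.94 and 9.95 in T4 (1.67 ± 0.37, adjusted p = 0.0263). It lost its call without S1 sample 3, T4 sample 1, Tyrphostin AG 1478 or mAb225 (adjusted p of 0.0515 to 0.0685), and with the table term from the other reverts alone (0.101). CDH1, the E-cadherin gene, had 10.99, 10.90 and 11.92, against 9.76, 10.20 and 9.75 in T4, without overlap but short of the threshold (1.49 ± 0.44, adjusted p = 0.0694). VIM, the vimentin gene, had 12.03, 12.11 and 11.79, against 13.56, 13.69 and 13.16 in T4 (-1.33 ± 0.32, adjusted p = 0.033), and lost its call when any of 10 samples was left out (adjusted p of 0.0511 to 0.0877). ACTA2 fell by 0.64 ± 0.15 (adjusted p = 0.0322), and its call too was lost when any of 10 samples was left out (0.0541 to 0.0881). With the table term from S1 alone and from the other reverts alone, the adjusted p was 0.0591 and 0.0632 for VIM and 0.0906 and 0.111 for ACTA2. FN1, VIM and ACTA2 were the 3 lower genes of 12 mesenchymal markers (3.62% of all genes were lower), and none was higher. In that list 6 differences were positive and 6 negative, with a median of -0.05, so the falls were in particular members. Of 8 luminal and 7 basal markers, each list had 1 gene higher and 1 lower (2.54% and 3.62% of all genes), with list medians of 0.18 and 0.24. The luminal keratin gene KRT18 fell by 1.33 ± 0.24 (adjusted p = 0.00992), while the luminal EPCAM rose by 1.29 ± 0.33 (adjusted p = 0.0437). The basal keratin gene KRT5 rose by 0.65 ± 0.16 (adjusted p = 0.0396), while the basal LAMB3 differed by -2.0 ± 0.35 (adjusted p = 0.00888). EPCAM and KRT5 lost their calls when 1 of 12 and 1 of 11 samples was left out (adjusted p of 0.0626 to 0.115 and 0.0558 to 0.0996), and both had 0.135 with the table term from the other reverts alone. KRT5 was abundant throughout, at 13.91 to 14.13 in blockade samples and 13.12 to 13.48 in T4 samples, as the epithelial label implies. Of the leukocyte, endothelial, fibroblast and adipocyte markers, 2 of 6, 2 of 5, 5 of 7 and 1 of 4 were bright enough to test, and none was called. Their mean levels were 6.80 to 7.64 in blockade samples and 6.76 to 7.37 in T4 samples.

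**Figure D4:**
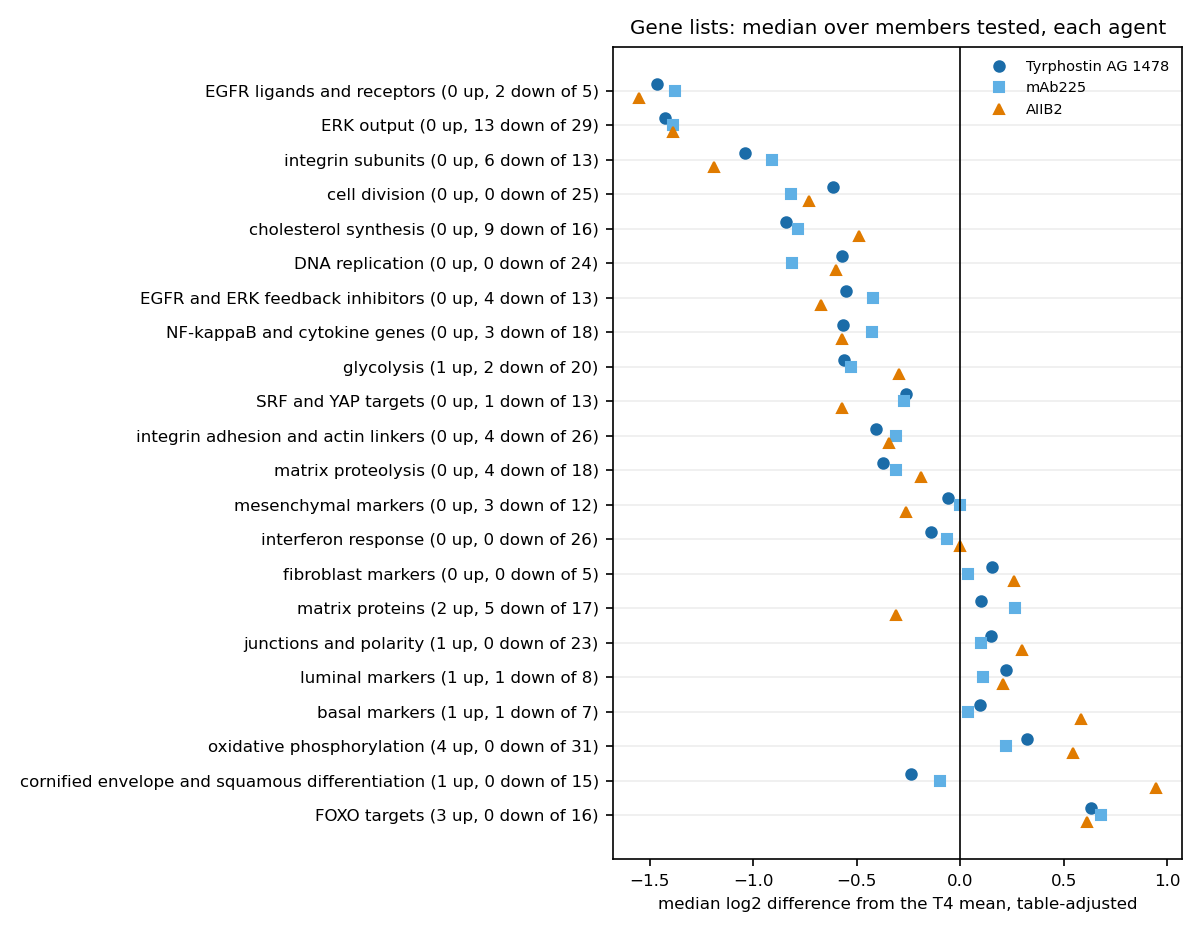
Median table-adjusted log2 difference from the T4 mean (x axis) over the tested members of each gene list, by agent, with the number of members called higher and lower in the group test. ERK output and the EGFR ligands and receptors lie furthest below 0 for every agent, and AIIB2 stands apart for the cornified envelope and squamous list.

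The 3 agents can be compared with each other free of the table, but only as values, since each has 1 sample. The EGFR agents gave nearly the same profile: mAb225 and Tyrphostin AG 1478 were at least 2-fold apart in 0 of 9111 genes, with a median absolute difference of 0.0863. T4 samples 1 and 2 had a median absolute difference of 0.0992. AIIB2 was at least 2-fold from Tyrphostin AG 1478 in 144 genes and from mAb225 in 173, and from both in 126 genes (1.38%), of which 79 were higher and 47 lower. The genes furthest above both were SPRR1B, S100A8 and SPRR1A. SPRR1B, a cornified envelope precursor gene, had 12.26 with AIIB2, against 7.48 with Tyrphostin AG 1478 and 7.41 with mAb225, and its T4 levels were 8.49, 9.43 and 7.40. S100A8, a calcium-binding alarmin gene, had 12.67 with AIIB2, against 8.37 and 8.40 with the EGFR agents, and 9.49, 9.58 and 9.86 in T4. SPRR1A had 11.18 with AIIB2, against 7.04 and 6.83, and 7.40, 8.17 and 6.98 in T4. These were the highest values of all 15 samples for SPRR1A, SPRR1B and S100A8. The median of the squamous list of 15 genes was 0.95 with AIIB2, against -0.24 with Tyrphostin AG 1478 and -0.10 with mAb225. CDKN1A, the p21 cell cycle inhibitor gene, was split the same way, at 10.27 with AIIB2, against 7.42 and 7.47 with the EGFR agents, and 9.86, 9.64 and 8.62 in T4.

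The genes furthest below both EGFR agents with AIIB2 were GABRE, ULK2 and CXCL14. GABRE, a GABA receptor subunit gene, had 7.91 with AIIB2, against 10.38 with Tyrphostin AG 1478 and 10.44 with mAb225, and 6.99, 7.29 and 7.25 in T4. ULK2, an autophagy kinase gene, had 7.44 with AIIB2, against 9.38 and 9.57, and 7.51, 7.61 and 7.25 in T4. CXCL14, a chemokine gene, had 7.46 with AIIB2, against 9.34 and 9.54, and 6.89, 6.95 and 6.69 in T4. The AIIB2 level of ULK2 lay within the range of T4, while those of GABRE and CXCL14 lay above every T4 sample and below both EGFR agents. No gene set Tyrphostin AG 1478 or mAb225 apart from both other agents by 2-fold.

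**Figure D5:**
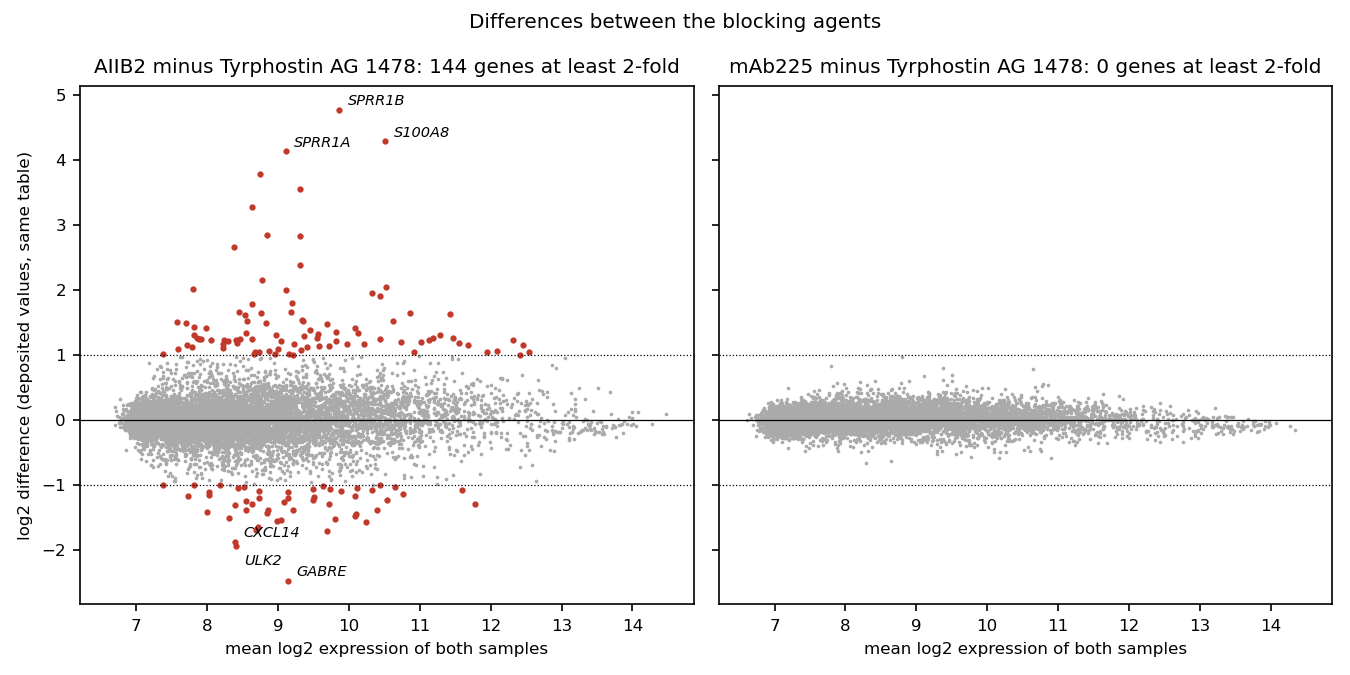
Log2 difference between agents of the same table (y axis) against their mean log2 level (x axis), for AIIB2 minus Tyrphostin AG 1478 (left, 144 genes at least 2-fold apart, in red) and mAb225 minus Tyrphostin AG 1478 (right, 0 genes). SPRR1B, SPRR1A and S100A8 lie furthest above 0 and GABRE furthest below.

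No gene was shown to be particular to these 3 agents. Against the other 6 reverts, limma called 0 of 9111 genes (0.0%), with 424 at an unadjusted p under 0.05 (4.65%) and a smallest adjusted p of 0.960. Within the second table alone, against 3 other agents, 0 were called, and without PD98059 in the full fit 8 were. PHLDA1 lay at 7.08 to 7.39 in blockade samples, against 7.27 to 8.14 in the other reverts, and PTGS2 at 6.76 to 6.91, against 6.70 to 6.93. Among the 3 other agents of the second table, PD98059 had the fewest genes apart from the EGFR agents, with 2 genes at least 2-fold from mAb225 and 5 from Tyrphostin AG 1478, against 164 from AIIB2. Dominant-negative Rap1 had the most among these 3, with 403, 352 and 438 genes at least 2-fold from Tyrphostin AG 1478, mAb225 and AIIB2. FN1, for example, lay at 7.04 to 7.20 in blockade samples, against 8.89 with dominant-negative Rap1 and 10.56 to 11.56 in T4.

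Blockade left many genes apart from S1. In total 1106 of 9111 genes (12.1%) differed, 518 higher (5.69%) and 588 lower (6.45%) in blockade, with 122 and 149 of these at least 2-fold. The count was 640 without Tyrphostin AG 1478, 673 without mAb225 and 670 without S1 sample 3. Of the 13 ERK-induced genes lowered in common, limma called 0 against S1, with 2 at an unadjusted p under 0.05, which does not show that they were equal. PHLDA1 differed from S1 by 0.10 ± 0.21 (adjusted p = 0.821), PTGS2 by 0.20 ± 0.18 (adjusted p = 0.52) and IER3 by 1.17 ± 0.38 (adjusted p = 0.0659). The 3 ERK-induced genes called against S1, named after their values were seen, were EPHA4 (-2.29 ± 0.15, adjusted p = 8.59e-06), CCND1 (1.01 ± 0.29, adjusted p = 0.0453) and KLF6 (1.51 ± 0.38, adjusted p = 0.0245), none of which was called against T4. S1 levels of PHLDA1 were 7.30, 7.38 and 7.30, which overlapped with the blockade levels. Some genes of matrix and its proteolysis were below S1, with SERPINE2 at -2.24 ± 0.44 (adjusted p = 0.00803) and COL4A2 at -1.26 ± 0.26 (adjusted p = 0.0104) relative to S1. The genes most above S1 were MSLN, a surface glycoprotein gene (3.94 ± 0.46, adjusted p = 0.000412), COL5A2, a fibrillar collagen gene (3.46 ± 0.38, adjusted p = 0.000295), TNFSF10, the death ligand TRAIL (3.18 ± 0.76, adjusted p = 0.0196), LGALS3BP (3.05 ± 0.20, adjusted p = 8.59e-06) and MATN2 (2.92 ± 0.41, adjusted p = 0.00135). MSLN had 11.64, 11.60 and 11.19 with the agents, against 8.09, 7.95 and 6.64 in S1, with T4 at 9.88, 9.87 and 9.18. COL5A2 had 10.76, 10.94 and 10.55 with the agents, against 7.45, 7.41 and 6.72 in S1, with T4 at 10.86, 10.87 and 9.75.

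Of the genes most below S1, all named here but AXL were at a low level in T4 as well. GPM6B, a membrane glycoprotein gene, had 6.74, 6.73 and 6.66 with the agents, against 9.71, 9.86 and 9.90 in S1, with T4 at 6.76, 6.82 and 6.64 (blockade minus S1 of -3.16 ± 0.09, adjusted p = 4.94e-09). MRFAP1L1 (-3.57 ± 0.15, adjusted p = 1.1e-07) and the calcium-binding protein gene S100A14 (-3.06 ± 0.13, adjusted p = 1.59e-07) had the same pattern. IGFBP3, which binds insulin-like growth factors, had 6.88, 6.76 and 6.84 with the agents, against 11.18, 11.58 and 9.12 in S1, with T4 at 6.64, 6.98 and 6.77 (-3.28 ± 0.43, adjusted p = 0.000982). AXL, a receptor tyrosine kinase gene, had 7.18, 7.05 and 7.17, against 10.06, 9.97 and 10.02 in S1, with T4 at 8.87, 8.40 and 7.25 (-3.10 ± 0.48, adjusted p = 0.00231). GPM6B, MRFAP1L1, S100A14 and IGFBP3 did not pass the test against T4 (adjusted p of 0.367 to 0.632). AXL stood lower with the agents than in any T4 sample without passing the test against T4 (-1.36 ± 0.55, adjusted p = 0.17).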

How the data were processed

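Total RNA was measured on Affymetrix arrays. The authors deposited log2 expression values, 6.21 to 14.5 with sample medians of 7.33 to 7.40, in 2 tables. The sources used here do not state their background correction or normalization, nor whether it was done jointly. Of 22215 probe sets, 19707 had 1 gene in the platform annotations. Symbols were updated through Entrez numbers. Each of 12149 genes took its brightest probe set, and after the dimmest 25% were left out, 9111 were tested. The fit (limma 3.58.1, R 4.3.3, lmFit and eBayes, 2-sided, checked on simulated data) had 5 groups, namely blockade, T4, S1, the protease inhibitors, and PD98059 with LY294002 and dominant-negative Rap1, plus the table as a block, with 9 residual degrees of freedom. The simulated data held a table term shared by all groups, so that check does not bear on whether the term is right for T4 and blockade. Agents were adjusted by the table term. The number of arrays limits the precision. Named genes were the 12 in each direction with the largest smallest agent difference, up to 4 called per list, a fixed panel, and the extremes against S1 and between agents. The agents, the 25 lists and the panel were chosen with earlier results of these data known.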

Additional observations from a re-analysis of the deposited data

How the results depend on the processing

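Genes called against T4 numbered 231 higher and 330 lower. Both counts moved past 1.5-fold with array weights (961 and 1249), the table left out of the fit (498 and 669), quantile normalization across tables with no table block (571 and 606) and the table term from the other reverts only (86 and 168), and the higher count with the term from S1 only (468). Leaving out 1 sample gave 63 to 349 higher and 131 to 410 lower. Past 1.5-fold, the higher count was 131, 134 and 153 without S1 samples 1, 2 and 3, 107 without T4 sample 1, 130 without GM6001, 110 without the MMP and ADAM inhibitor and 349 without PD98059. The lower count was 202 and 212 without S1 samples 1 and 2, 181 without T4 sample 1, 177 without the MMP and ADAM inhibitor and 208 without TNF protease inhibitor–2. Genes changed in common were 169 raised and 262 lowered when each agent had to reach 1.5-fold, and 24 and 71 at 3-fold. They were 217 and 271 with the term from S1 only, and 24 raised with that from the other reverts only. Leaving out 1 sample gave 26 to 98 raised and 98 to 170 lowered. Against S1 the count was 2561 with array weights and 640 to 1437 with 1 sample left out. Without T4 sample 3 and dominant-negative Rap1, an alternative chosen after seeing the data, it was 1851, and the genes changed in common were 50 and 151. Against the other agents it was 0 to 8 with 1 sample left out. No call reversed its direction under the alternatives run. Of 68 called genes named by rule, 42 kept the call without each sample in turn and 31 under every alternative run. No paired analysis was possible because the agent samples carry no replicate numbers. The cause of these shifts was not tested. No detection calls were used, so genes near the lowest levels have differences that may be understated.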

Other observations

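Other genes changed in common, picked from the 217 after their values were seen, stood in none of the 25 lists. PLEK2, a pleckstrin gene of actin remodelling, had levels of 9.07, 9.06 and 9.65 with Tyrphostin AG 1478, mAb225 and AIIB2, against 11.94, 11.84 and 12.29 in T4 samples 1 to 3 (-3.13 ± 0.28, adjusted p = 0.000149, limma). FSCN1, the actin-bundling fascin gene, had 8.14, 8.40 and 8.39 with the agents, against 10.09, 10.17 and 10.76 in T4 (-2.37 ± 0.30, adjusted p = 0.00163). LOXL2, a collagen cross-linking oxidase gene, differed by -2.88 ± 0.44 (adjusted p = 0.00414), with all 3 agents at 7.0 to 7.15, against 8.86 to 10.59 in T4.

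INHBA, the activin A subunit gene, had 7.06, 6.98 and 6.89 with the agents, against 9.79, 9.39 and 9.68 in T4 (-2.38 ± 0.24, adjusted p = 0.000473). The receptor genes TNFRSF12A (-2.19 ± 0.29, adjusted p = 0.00234) and TLR2 (-2.57 ± 0.41, adjusted p = 0.0056) and the secreted ANGPTL4 (-2.58 ± 0.34, adjusted p = 0.00234) were lower in every agent than in any T4 sample. On the raised side, GSR, the glutathione reductase gene, had 9.30, 9.54 and 9.81, against 7.87, 8.14 and 8.10 in T4 (1.51 ± 0.21, adjusted p = 0.0027), and its deposited values differed by the same 1.51. Each of these 8 genes kept its call without any single sample and with the table term from either source. Over the whole sets, 86 of 149 lowered and 18 of 68 raised genes met the rule without each sample in turn. With the table term from each source, 83 and 14 did.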
